A study of Mus musculus with 8 samples.

Results

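The genes described here encode the pore-forming subunits of AMPA and kainate receptors, the ionotropic glutamate receptors that carry most fast excitatory transmission and part of its modulation in the mouse forebrain. They are the 4 AMPA subunit genes Gria1, Gria2, Gria3 and Gria4 and the 5 kainate subunit genes Grik1, Grik2, Grik3, Grik4 and Grik5, taken by symbol from the count tables of both regions. All 9 were present among the 33885 symbols of each table, and all 9 passed the filter on low counts in every comparison. Total RNA had been sequenced from dissected tissue in 8 libraries, 2 for each of 4 groups, all from adult male mice of the inbred strain C57Bl6J. One region, the nucleus accumbens (NAc) of the ventral striatum, belongs to the reward circuit and was sampled from mice that explored a place-preference chamber under an intraperitoneal cocaine dose of 7.5 mg/kg, and from mice left in the home cage. The medial prefrontal cortex (mPFC) was sampled from mice exposed to social defeat by aggressive CD1 males, and from home-cage mice. Exposed mice were dissected 15 min after the experience. No saline injection, chamber-only or non-aggressive contact group was used here, so cocaine cannot be told apart from injection and chamber, or defeat from contact with an unfamiliar male. Whether replicates came from separate animals or from pools is not stated in the labels, and p-values therefore measure only the spread between these libraries, which may be technical. In the edgeR fits below that spread is partly shared among genes, so p-values and intervals do not rest on a gene's own replicates alone. The mPFC titles read WT, and no mutant group is used here. The NAc titles number the libraries 1 and 2 in each group, while the defeat libraries are called replicates 1 and 2 in deposition order.

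AMPA receptors are tetramers built from the Gria products. The Gria2 product, after RNA editing of its pore codon, makes the channel nearly impermeable to calcium, so that receptors lacking it pass calcium. The Gria1 product carries phosphorylation sites used in synaptic plasticity, the Gria3 product pairs with the Gria2 product in constitutively cycling receptors, and the Gria4 product is prominent in several classes of interneuron. Kainate receptors are tetramers as well. The products of Grik1, Grik2 and Grik3 can form channels by themselves, whereas those of Grik4 and Grik5 bind glutamate with high affinity but need one of the former as a partner. In the NAc, AMPA receptors on the spiny projection neurons receive the cortical, amygdalar and hippocampal input and are among the best-studied sites of change after repeated cocaine.

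Library totals ran from 111901829 to 179479978 counts, and the 9 genes together held 0.499 to 0.520% of the counts in the NAc libraries and 0.366 to 0.386% in the mPFC libraries. The smallest count of any of the 9 genes in a library was 7563, for Grik1. The NAc libraries of number 1 and of number 2 stood apart in both treatment groups. The mean log2 level of 10 striatal projection neuron markers minus that of 9 cortical glutamatergic markers was 2.34 and 2.99 in the NAc libraries numbered 1 (cocaine, home cage), 0.18 and 0.11 in those numbered 2, and between -3.76 and -3.70 in the mPFC libraries. Summed striatal markers reached 4605 and 5296 CPM, the counts scaled to a common library size, in the number 1 NAc libraries and 1921 and 1663 CPM in the number 2 libraries, against 539 to 637 CPM in mPFC. Of the marker lists for other cell types, Gpr17 of the oligodendrocyte precursor list, P2ry12 of the microglia list and Kcnj13 of the choroid plexus list were listed at 0 in all 8 libraries, and Folr1 of the choroid plexus list in some. The other oligodendrocyte precursor and microglia markers were counted in every library, for example Pdgfra at 34.6 to 38.9 CPM and Csf1r at 52.9 to 69.3 CPM. A listed 0 is therefore not read as absence of a cell type, and its cause was not tested. In tissue RNA, fewer cells of a type and less RNA per cell cannot be told apart.

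The levels of the 9 genes were first set side by side, which needs a length. Total RNA holds unspliced transcripts, and whether introns were counted is not given in the sources used here. Genes with a span over 100 kb took 44.3% of the counts matched to gene models while making up 21.6% of the exonic length. The members are long genes: 8 of the 9 span over 100 kb, from 121 kb for Gria2 to 694 kb for Grik2, and Grik5 spans 62.5 kb. Levels are therefore given per kb of merged exons and, separately, per kb of gene span.

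Per kb of merged exons, Gria1 stood highest in every group, at 283 ± 6.82 CPM per kb in home-cage NAc and 138 ± 11.2 CPM per kb in home-cage mPFC (SD, n = 2). Grik5 came next in all 4 groups, with group means from 75.3 to 85.8 CPM per kb. In home-cage NAc the order went on with Gria3 at 64.6 ± 0.0178, Grik3 at 60.9 ± 1.43, Gria2 at 50.1 ± 3.61, Grik2 at 44.8 ± 16.8, Gria4 at 30.4 ± 2.17, Grik4 at 23.4 ± 3.80 and Grik1 at 8.55 ± 2.61 CPM per kb (SD, n = 2). The neighbours Gria2 and Grik2 in that order overlapped in range, and so did no other adjacent pair. In home-cage mPFC, Gria3 at 59.2 ± 3.30 and Gria4 at 58.2 ± 2.72 CPM per kb overlapped, and Gria4 thus held rank 4 of the 9 there against rank 7 in NAc. Grik1, whose product forms kainate receptors found mainly on interneurons and sensory neurons, was lowest in all 4 groups on both scales.

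Per kb of gene span the order changed. Grik5 stood highest in every group, at 7.10 ± 0.307 CPM per kb in home-cage NAc and 6.78 ± 0.543 CPM per kb in home-cage mPFC (SD, n = 2), followed by Gria2 at 6.42 ± 0.462 and 5.58 ± 0.184 CPM per kb. Gria1 fell to rank 3 in each group, at 5.37 ± 0.129 CPM per kb in home-cage NAc and 2.61 ± 0.212 CPM per kb in home-cage mPFC. Over all 8 libraries, 4 of the 9 genes held the same rank on both scales. Statements that one subunit gene is more abundant than another therefore depend on which length is used, while differences of one gene between groups do not.

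**Figure D1:**
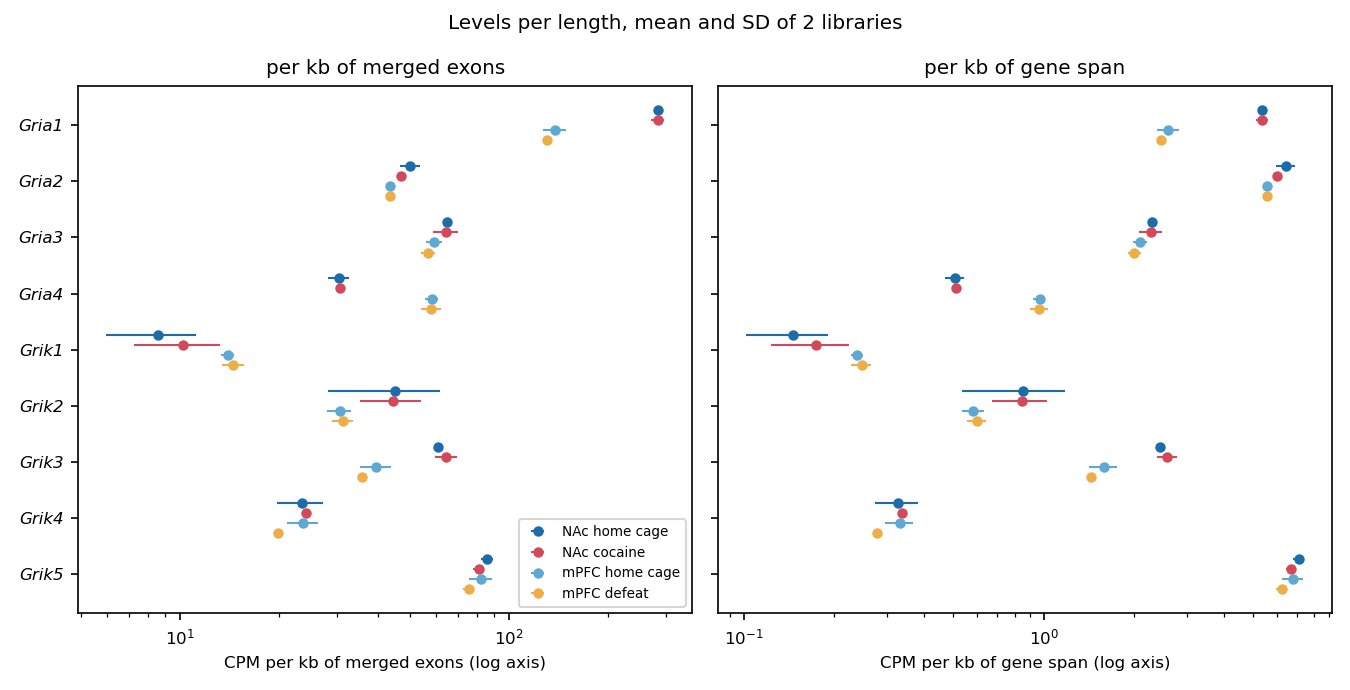
Mean level of each subunit gene in each group, as CPM per kb of merged exons (left) and per kb of gene span (right), on log axes. Points are means and bars the SD of 2 libraries; Gria1 leads on the left, Grik5 leads on the right, and Grik1 is lowest on both.

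Between the regions, Gria1 was 2.05-fold and Grik3 1.54-fold higher in home-cage NAc, Gria4 was 1.92-fold lower there, and Gria2, Gria3 and Grik5 differed by at most 1.15-fold and did not pass. In home-cage mice 3 of the 9 genes passed edgeR's quasi-likelihood test, with a p adjusted by Benjamini-Hochberg under 0.05, 2 higher and 1 lower in NAc, where 12.4% of the 18300 genes tested passed, 7.01% higher and 5.35% lower in NAc. The comparison of NAc after cocaine with mPFC after defeat, in which region and experience cannot be told apart, called 4 of the 9 genes, 3 higher and 1 lower in NAc, where 36.3% of 18362 genes passed, 19.2% higher and 17.1% lower. The median of the 9 log2 fold changes between home-cage NAc and mPFC was 0.12 (0.01 over all genes tested), and the median of their absolute values was 0.55 (0.26 over all genes tested). Libraries of the regions did not overlap for 7 of the 9 genes in home-cage mice, 5 higher and 2 lower in NAc, beside 63.4% of all genes tested (32.2% higher, 31.2% lower). In exposed mice all 9 genes did not overlap, 7 higher and 2 lower, beside 74.2% of all genes (37.3% higher, 36.9% lower).

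Before the single genes, the promoters of the members were read from RefSeq on GRCm38.p6, whose table matched 6 of the 9 genes (Gria2, Gria4, Grik2, Grik3, Grik4 and Grik5). No window was available for Gria1, Gria3 or Grik1. The 250 bases upstream of the annotated start are shown for Gria4, Grik3 and Grik2. In the home-cage fit over both NAc numbers, Gria4 was the member that passed as lower in NAc. Grik3 was the kainate member that passed there as higher, and Grik2 separated the NAc libraries by number. The 3 windows lie, in the order Gria4, Grik3 and Grik2, at chr9:4796235-4796484 (minus strand), chr4:125490446-125490695 (plus strand) and chr10:49788755-49789004 (minus strand). Sequences run 5′ to 3′ on the strand of the gene, and capitals mark the GC-box letters GGGCGG or their reverse complement.
Gria4: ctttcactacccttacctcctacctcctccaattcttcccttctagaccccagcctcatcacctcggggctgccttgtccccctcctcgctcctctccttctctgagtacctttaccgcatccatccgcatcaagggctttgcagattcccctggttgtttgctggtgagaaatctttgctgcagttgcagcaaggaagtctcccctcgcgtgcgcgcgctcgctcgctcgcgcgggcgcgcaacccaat
Grik3: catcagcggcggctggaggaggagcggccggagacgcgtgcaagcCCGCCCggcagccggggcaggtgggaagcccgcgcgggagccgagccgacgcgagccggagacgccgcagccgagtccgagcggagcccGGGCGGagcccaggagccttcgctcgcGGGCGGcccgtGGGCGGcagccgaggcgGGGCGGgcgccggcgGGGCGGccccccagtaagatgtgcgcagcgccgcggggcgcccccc
Grik2: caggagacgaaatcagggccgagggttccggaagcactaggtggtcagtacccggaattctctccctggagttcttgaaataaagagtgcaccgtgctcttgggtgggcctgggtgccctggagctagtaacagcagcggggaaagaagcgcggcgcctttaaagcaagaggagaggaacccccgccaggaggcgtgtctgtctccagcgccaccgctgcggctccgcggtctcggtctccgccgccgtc
The Grik3 window held GGGCGG 6 times over both strands, Grik5 2 times, Grik4 1 time, and Gria2, Gria4 and Grik2 not at all, where 32.9% of 27025 promoter windows of the table held it at least once. CpG dinucleotides numbered 42 in the Grik3 window, 36 in Grik4, 20 in Grik2, 19 in Gria2, 16 in Gria4 and 8 in Grik5, against a median of 6 over the table. The CREB-type letters TGACGTCA, held by 1.62% of the windows, and the AP-1-type letters TGANTCA, held by 6.87%, were searched on both strands and occurred in none of the 6 member windows. These motifs do not overlap one another, and such a search covers only these letters in this window.

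Gria1 (chromosome 11, positions 57011387 to 57330244, plus strand, GRCm38/mm10 in GENCODE release M21) was the member with the largest regional fold change. Its CPM values were 1682 and 1741 in home-cage NAc and 1653 and 1769 after cocaine, against 785 and 880 in home-cage mPFC and 774 and 805 after defeat. All 4 NAc libraries lay above all 4 mPFC libraries. The log2 fold change of NAc over mPFC was 1.04 (SE 0.13, edgeR adjusted p = 0.0132), or 2.05-fold, in home-cage mice. Gria1 was 2.17-fold higher in NAc after the experiences, with a log2 fold change of 1.12 (SE 0.10, edgeR adjusted p = 0.0018). Of all genes tested in home-cage mice, 88.1% had a smaller absolute log2 fold change than Gria1. Cell type markers differed between the same libraries: of 10 striatal markers 9 were higher in home-cage NAc (median log2 fold change 3.60), and of 9 cortical glutamatergic markers 3 were lower (median -1.18). Their part in the member differences was not tested. Each region has a table of its own, and whether tissue of both was prepared together is not stated in the labels.

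Gria4 (chromosome 9, positions 4417896 to 4796234, minus strand) went the other way. It had 201 and 182 CPM in home-cage NAc and 191 and 197 CPM after cocaine, against 379 and 355 CPM in home-cage mPFC and 348 and 383 CPM after defeat. The NAc libraries were all low and the mPFC libraries all high, without overlap. In edgeR the log2 fold change was -0.94 (SE 0.12, adjusted p = 0.0123), that is 1.92-fold lower in home-cage NAc, and -0.92 (SE 0.09, adjusted p = 0.0022) in exposed mice. Of the interneuron markers, a population known for Gria4, Pvalb and Lhx6 were lower and Chat was higher in home-cage NAc, and the other 4 of 7 did not pass. Their summed level was 315 to 483 CPM in NAc and 512 to 601 CPM in mPFC. Much of that sum came from Cck, at 108 to 210 CPM in NAc and 259 to 324 CPM in mPFC, and Sst. Sst overlapped between regions, at 136 to 188 CPM in NAc and 144 to 171 CPM in mPFC. The sum is thus no measure of interneuron number, and its part in the Gria4 difference was not tested.

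Gria2 (chromosome 3, positions 80681450 to 80802835, minus strand) had 819 and 740 CPM in home-cage NAc and 717 and 741 CPM after cocaine, against 693 and 661 CPM in home-cage mPFC and 670 and 683 CPM after defeat. Every NAc library lay above every mPFC library, by a margin smaller than the gap between the home-cage NAc replicates. The log2 fold change in home-cage mice was 0.20 (95% interval -0.11 to 0.51, edgeR adjusted p = 0.331). Gria3 (chromosome X, positions 41400854 to 41678601, plus strand) had 637 and 637 CPM in home-cage NAc and 593 and 673 CPM after cocaine, against 606 and 560 CPM in home-cage mPFC and 539 and 578 CPM after defeat. Its regional groups were close and, over the 8 libraries, overlapping. The log2 fold change of Gria3 in home-cage mice was 0.12 (95% interval -0.17 to 0.42, edgeR adjusted p = 0.518), an interval that leaves room for differences up to 1.34-fold.

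Grik3 (chromosome 4, positions 125490700 to 125714173, plus strand), a kainate subunit of low glutamate sensitivity, had 556 and 538 CPM in home-cage NAc and 546 and 609 CPM after cocaine. The mPFC libraries had 328 and 381 CPM in the home cage and 314 and 328 CPM after defeat, all below the 4 NAc libraries. In home-cage mice Grik3 was 1.54-fold higher in NAc, with a log2 fold change of 0.62 (SE 0.13, edgeR adjusted p = 0.0393), and in exposed mice 1.80-fold higher, with 0.85 (SE 0.10, edgeR adjusted p = 0.0033). With the replicate number as a block, the home-cage value was 0.63 and no longer passed (edgeR adjusted p = 0.0560). The labels do not link the numbers of NAc and mPFC. Deviations of same-numbered home-cage libraries from their group means correlated at 0.07 between the regions.

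These home-cage calls rested on the mPFC replicates. Without mPFC home-cage replicate 1, the spread came from the 2 NAc libraries alone, the lone mPFC library being assumed to vary like them, and no gene in the whole table passed. The log2 fold changes were then 0.95 for Gria1, -0.90 for Gria4 and 0.51 for Grik3, with adjusted p of 0.253, 0.203 and 0.397. Without mPFC home-cage replicate 2, again no gene passed, and the values were 1.12, -0.99 and 0.73, with adjusted p of 0.210, 0.179 and 0.283. In the exposed comparison, leaving out mPFC defeat replicate 1 left Gria4 alone among the members (1133 genes passed in all), and leaving out replicate 2 left Gria1 and Gria4 (1553 genes).

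Grik1 and Grik2 differed between the NAc libraries themselves. Grik1 (chromosome 16, positions 87895900 to 88290265, minus strand) had 45.1 CPM in home-cage and 54.5 CPM in cocaine NAc library 1, against 69.9 and 82.8 CPM in the libraries numbered 2. The mPFC libraries had 90.8 to 103 CPM, above every NAc library. Grik2 (chromosome 10, positions 49094833 to 49788766, minus strand), a widely expressed kainate subunit gene, had 751 and 677 CPM in the NAc libraries numbered 1 and 437 and 502 CPM in those numbered 2. Its mPFC values were 380 to 437 CPM, and the number 2 NAc libraries lay just at the upper edge of that range or above it.

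With treatment in the model, 2 of the 9 genes passed between the NAc numbers, Grik1 lower in number 1 with a log2 fold change of -0.62 (SE 0.08, edgeR adjusted p = 2.94e-05) and Grik2 higher with 0.61 (SE 0.10, edgeR adjusted p = 0.00049). In that fit 18.8% of 18418 genes passed, 9.67% higher and 9.16% lower. The fit left few residual degrees of freedom, so its SEs and p-values lean on the spread shared among genes. The ratio of number 1 to number 2 was 0.645 for Grik1 in home-cage and 0.659 in cocaine libraries, and 1.72 and 1.35 for Grik2. The other 7 members had values between -0.09 and 0.15 on the log2 scale, none of which passed. That the numbers separate was known from earlier results of these data, and the labels do not say what the number marks.

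Cell type markers moved with the same numbers. All 10 striatal markers were higher in number 1 (median log2 fold change 1.71), among them Drd2 with 2.0 and Adora2a with 2.03, both markers of indirect-pathway projection neurons. Of 9 cortical glutamatergic markers 8 were lower (median -0.85), and of 7 interneuron markers 5 were lower and 1 was higher. All 6 oligodendrocyte markers were higher (median 0.49), mostly through the home-cage pair. Their summed level was 2244 CPM in home-cage library 1 against 1256 CPM in library 2, but 2402 against 2115 CPM after cocaine. The part of the cell type markers in the Grik1 and Grik2 differences was not tested.

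The regional values of Grik1 and Grik2 depended on which NAc number was used. Over both numbers in home-cage mice, Grik1 was at -0.71 (SE 0.22, edgeR adjusted p = 0.0944) and Grik2 at 0.55 (SE 0.27, edgeR adjusted p = 0.227), so neither passed. With a single NAc library the spread comes from the mPFC pair alone. With NAc replicate 1, Grik1 was at -1.07 and Grik2 at 0.89 and both passed, whereas with replicate 2 Grik1 was at -0.42 and passed and Grik2 was at 0.11 and did not. After the experiences, Grik1 was at -0.84 with NAc cocaine library 1 alone and -0.23 with library 2 alone, and Grik2 at 0.70 and 0.28. Gria1, Gria4 and Grik3 moved less with the number, at 1.01, -0.87 and 0.64 with home-cage NAc replicate 1 and 1.07, -1.01 and 0.60 with replicate 2.

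Grik4 and Grik5 encode the high-affinity partner subunits. Grik5 (chromosome 7, positions 25009849 to 25072346, minus strand) had 430 and 457 CPM in home-cage NAc, 428 and 407 CPM after cocaine, 400 and 448 CPM in home-cage mPFC and 401 and 378 CPM after defeat, and the regions overlapped in the home-cage libraries. Grik4 (chromosome 9, positions 42518135 to 42944493, minus strand) had 156 and 124 CPM in home-cage NAc and 130 and 152 CPM in home-cage mPFC, also overlapping. The home-cage log2 fold changes were 0.06 (95% interval -0.24 to 0.37) for Grik5 and -0.02 (95% interval -0.41 to 0.37) for Grik4. In exposed mice Grik4 passed, with 142 and 145 CPM in NAc after cocaine against 116 and 121 CPM in mPFC after defeat, a log2 fold change of 0.28 (SE 0.07, edgeR adjusted p = 0.0314). That call was lost without either defeat library, at 0.24 (adjusted p = 0.255) without replicate 1 and 0.30 (adjusted p = 0.158) without replicate 2, and in the fit over all 8 libraries (0.27, adjusted p = 0.139).

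**Figure D2:**
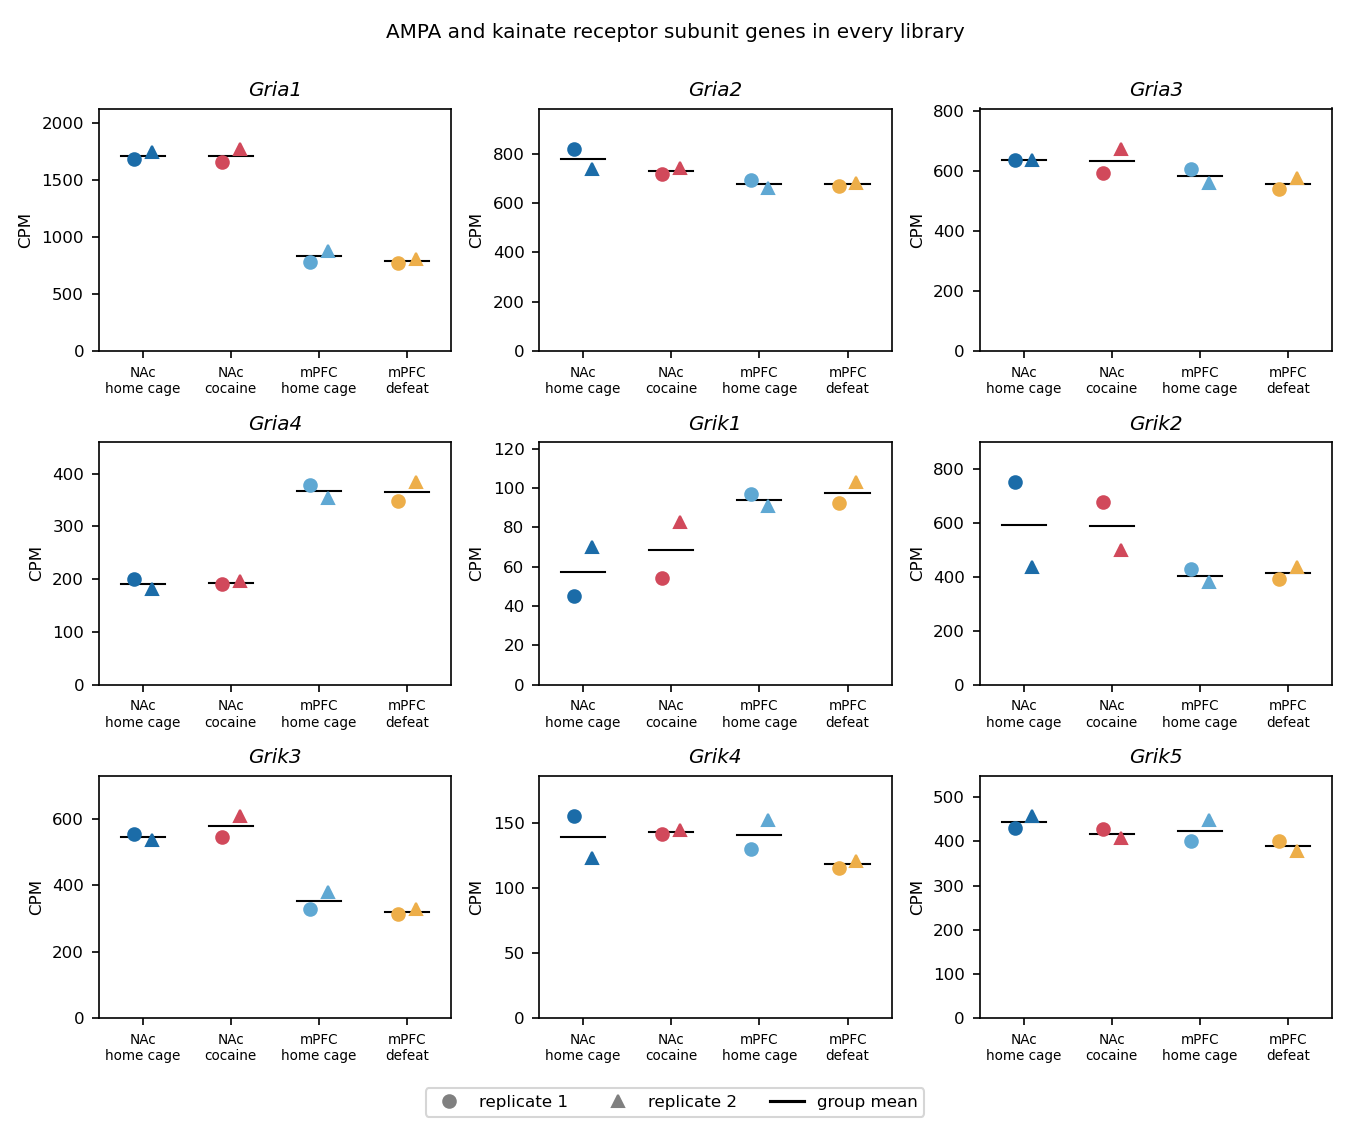
CPM of each subunit gene in every library, with circles for replicate 1, triangles for replicate 2 and lines for group means; each vertical axis starts at 0. Gria1 and Grik3 are higher in all 4 NAc libraries, Gria4 and Grik1 in all 4 mPFC libraries, and Grik1 and Grik2 split the NAc libraries by number.

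**Figure D3:**
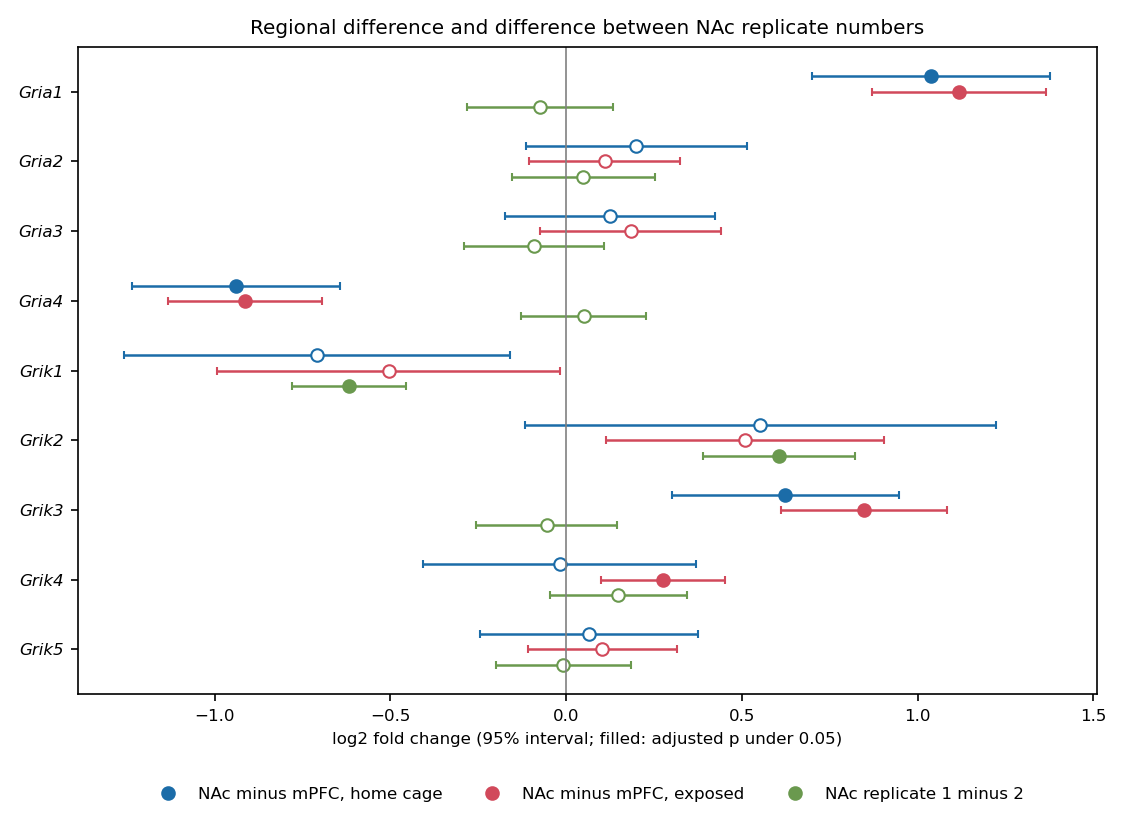
Log2 fold change with its 95% interval for each subunit gene between NAc and mPFC in home-cage mice, between NAc after cocaine and mPFC after defeat, and between NAc libraries numbered 1 and 2. Filled points passed at an adjusted p under 0.05; Grik1 and Grik2 are the members that passed between the NAc numbers.

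Ratios of members within a library do not depend on how libraries are scaled. Counts of Gria1 per count of Gria2 were 2.05 to 2.39 in the 4 NAc libraries and 1.13 to 1.33 in the 4 mPFC libraries. Gria4 per Gria2 was 0.246 to 0.266 in NAc and 0.519 to 0.561 in mPFC. These ratios separated the regions without overlap, by 0.92 and -1.08 on the log2 scale, and by 0.86 and -1.08 with the NAc libraries numbered 1 and 0.99 and -1.08 with those numbered 2. Gria3 per Gria2 overlapped, at 0.778 to 0.909 in NAc and 0.805 to 0.875 in mPFC, with a difference of means near 0 (exact permutation p = 1).

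Among the kainate genes, Grik1 per Grik2 was 0.0600 and 0.0805 in the number 1 NAc libraries, 0.160 and 0.165 in the number 2 libraries and 0.226 to 0.239 in mPFC. The regions did not overlap, but the log2 difference was -1.75 with number 1 and -0.53 with number 2. Grik3 per Grik2 overlapped between regions (0.740 to 1.23 against 0.752 to 1.0, exact permutation p = 0.314). Its log2 difference was -0.09 with the NAc libraries numbered 1 and 0.57 with those numbered 2, which at 1.21 and 1.23 lay above every mPFC library. The regions also overlapped for Grik4 per Grik5 (0.271 to 0.362 against 0.290 to 0.340, exact permutation p = 0.686). The summed kainate counts per summed AMPA count were 0.493 to 0.586 in NAc and 0.558 to 0.591 in mPFC (exact permutation p = 0.371), with log2 differences of 0.04 for number 1 and -0.17 for number 2, whose libraries lay below every mPFC library. Over the 7 ratios the 3 that did not overlap (Gria1/Gria2, Gria4/Gria2 and Grik1/Grik2) each had an exact two-sided permutation p of 0.0286, the smallest that 4 against 4 libraries can give, and a Benjamini-Hochberg adjusted p of 0.0667, so none passed after adjustment. With 7 ratios, 3 at that floor cannot pass, so the adjusted value does not decide whether these ratios differ. Home-cage and exposed libraries were pooled within a region for this test, which also treats the 4 NAc libraries as exchangeable although they split by number.

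**Figure D4:**
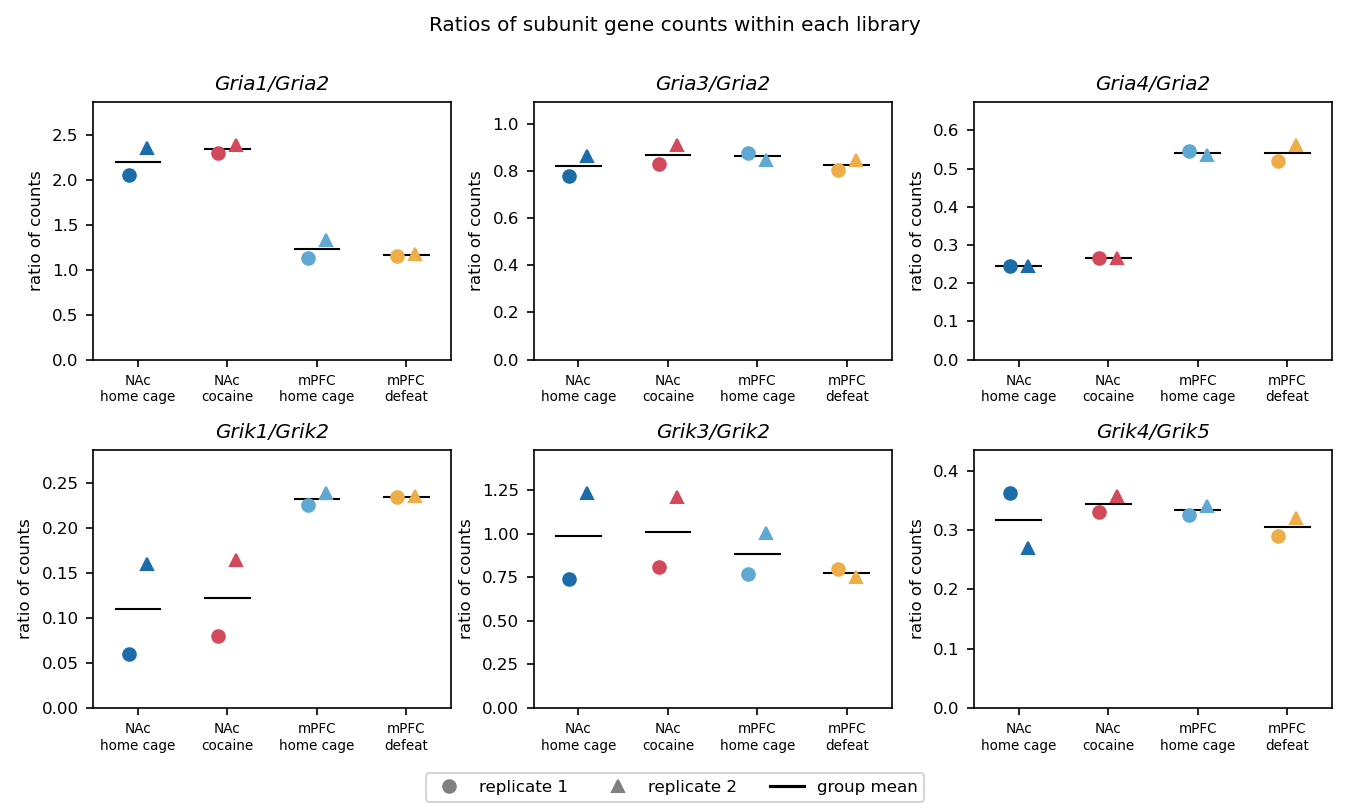
Ratio of counts of subunit gene pairs within each library, with circles for replicate 1, triangles for replicate 2 and lines for group means; each vertical axis starts at 0. Gria1/Gria2 and Gria4/Gria2 separate the regions in every library, and Grik1/Grik2 and Grik3/Grik2 split the NAc libraries by number.

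As shares of the summed AMPA level per kb of merged exons, Gria1 made up 65.1 to 67.1% in NAc and 43.9 to 48.3% in mPFC, and Gria4 made up 6.72 to 7.46% in NAc and 18.7 to 20.5% in mPFC. Per kb of gene span, the Gria1 share was 35.5 to 38.1% in NAc and 21.7 to 24.7% in mPFC, and that of Gria2 was 41.8 to 45.4% in NAc and 48.8 to 51.1% in mPFC. Gria1 thus held a larger share in every NAc library on both scales, while the size of the share depended on the scale. Of the summed kainate level per kb of merged exons, Grik5 held 35.4 to 41.6% in NAc and 41.0 to 44.2% in mPFC, and Grik3 held 26.4 to 30.7% in NAc and 20.0 to 21.6% in mPFC. Per kb of gene span, Grik5 held 61.9 to 67.6% in NAc and 69.6 to 72.1% in mPFC. Grik3 then held 22.2 to 25.9% in NAc and 15.8 to 17.0% in mPFC.

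After cocaine, none of the 9 genes passed against home-cage NAc, and no gene of the whole table did (0.0% of 18418 genes). At an unadjusted p under 0.05, none of the 9 genes stood beside 211 genes in all (1.15%), and DESeq2 called 4 genes, none a member. Member log2 fold changes ran from -0.10 for Gria2 to 0.26 for Grik1, with a median of 0.00 (-0.01 over all genes) and a median absolute value of 0.04 (0.08 over all genes). Cocaine and home-cage libraries overlapped for 8 of the 9 genes. The exception, Grik5, was lower after cocaine (428 and 407 CPM against 430 and 457 CPM) by a margin of less than 2 CPM, beside 11.9% of genes lower without overlap, and its log2 fold change was -0.09 (95% interval -0.38 to 0.21).

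The following 95% intervals come from the fit without the NAc number, and the spread in it includes the difference between the numbers. For Gria1 the interval ran from -0.35 to 0.35, which covers changes of up to 1.28-fold either way, and for Gria4 from -0.26 to 0.30. For Grik1, at 54.5 and 82.8 CPM after cocaine against 45.1 and 69.9 CPM, it ran from -0.55 to 1.07, and for Grik2, at 677 and 502 against 751 and 437 CPM, from -0.86 to 0.84. Within a number, the cocaine library had 1.21 times the home-cage level of Grik1 in number 1 and 1.18 times in number 2, while Grik2 had 0.901 times and 1.15 times. With the replicate number as a block, the SE of Grik1 fell from 0.30 to 0.08 and that of Grik2 from 0.32 to 0.10, and 38 genes passed, none of them a member. The blocked value for Grik1 was 0.26 (edgeR adjusted p = 0.251), again not passing.

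After social defeat, 0 of the 9 genes passed against home-cage mPFC, where 0.704% of 18027 genes passed in edgeR. Of the members, only Grik4 had an unadjusted p under 0.05, beside 7.14% of all genes. DESeq2 called no member either. Grik4 had 116 and 121 CPM after defeat against 130 and 152 CPM in the home cage, so both defeat libraries lay below both home-cage libraries, as for 17.8% of all genes tested. Its log2 fold change was -0.25 (SE 0.08, 95% interval -0.41 to -0.09, edgeR unadjusted p = 0.0022, adjusted p = 0.170), with a DESeq2 adjusted p of 0.334. Without mPFC home-cage replicate 1 it was -0.35 and passed (edgeR adjusted p = 0.0050), with the spread taken from the defeat pair alone and the lone home-cage library assumed to vary like it. Leaving out each library in turn gave -0.35 to -0.14.

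The other 8 members overlapped between defeat and home cage and had values from -0.14 for Grik3 (95% interval -0.30 to 0.03) to 0.06 for Grik1 (95% interval -0.10 to 0.21). For Gria1 the log2 fold change was -0.07 (95% interval -0.24 to 0.09), for Gria2 0.00 (95% interval -0.16 to 0.16), for Gria3 -0.06 (95% interval -0.22 to 0.10) and for Gria4 0.00 (95% interval -0.17 to 0.16). The intervals in mPFC were thus narrower than those in NAc for each of the 9 genes. The median over the members was -0.06, against 0.00 over all genes. In the same libraries all 8 activity marker genes rose after defeat (median log2 fold change 1.60), with Fos at 39.7 and 41.0 CPM against 8.89 and 10.1 CPM. After cocaine none of the 8 passed, in a fit where 0.0% of all genes tested did. All 8 values were positive (median 0.85), with unadjusted edgeR p from 0.00033 to 0.21.

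**Figure D5:**
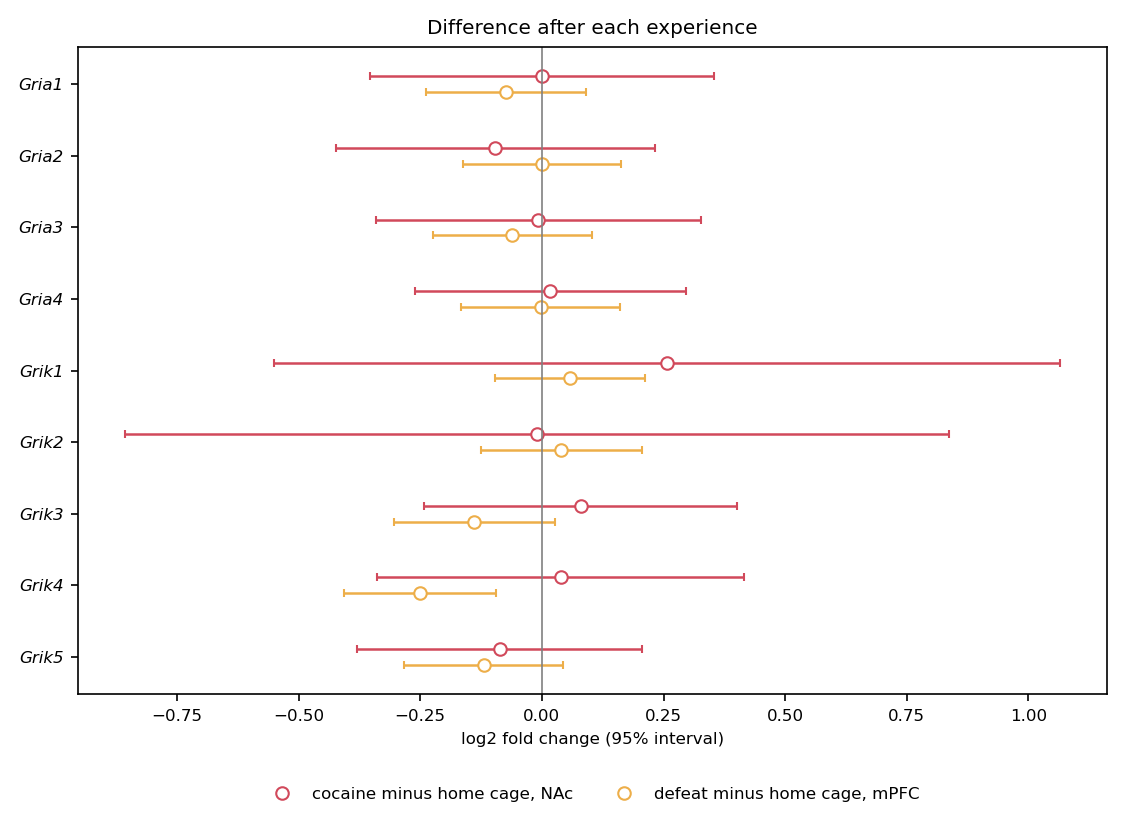
Log2 fold change with its 95% interval for each subunit gene after cocaine in NAc and after social defeat in mPFC, each against home cage. Open points did not pass at an adjusted p under 0.05, and no member passed; intervals are wider in NAc, most for Grik1 and Grik2.

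The difference between the responses, cocaine in NAc minus defeat in mPFC in 1 fit of 8 libraries, passed for none of the 9 genes and for 0.0% of 18783 genes in edgeR (415 genes, 2.21%, at an unadjusted p under 0.05, none of them a member; DESeq2 called 2 genes). The highest value was that of Grik4, at 0.29 (SE 0.18, 95% interval -0.13 to 0.71). The lowest was that of Gria2, at -0.09 (95% interval -0.39 to 0.20).

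The genes of proteins that assemble, anchor and modulate these receptors were counted next, from lists chosen for their function. Of 18 genes for AMPA receptor auxiliary subunits and assembly factors, 2 were higher and 2 lower in home-cage NAc in edgeR, beside 7.01% and 5.35% of all genes tested, with a median log2 fold change of 0.30 (0.01 over all genes). Cacng5, a transmembrane AMPA receptor regulatory protein, had 24.1 and 38.2 CPM in home-cage NAc against 6.14 and 5.89 CPM in mPFC (log2 fold change 2.37, adjusted p = 0.0078). Shisa9, which encodes an auxiliary subunit that slows recovery from desensitization, had 976 and 591 against 273 and 294 CPM (1.46, adjusted p = 0.0257). Lower in NAc were Frrs1l, an assembly factor of the endoplasmic reticulum, at 179 and 205 against 344 and 315 CPM (-0.78, adjusted p = 0.0229), and Cacng2, the gene of stargazin, at 95.4 and 83.9 against 122 and 135 CPM (-0.52, adjusted p = 0.0491). In exposed mice 4 of the 18 were higher and 3 lower, where 19.2% of all genes tested were higher and 17.1% lower, so that the list's share was close to that of all genes. They were led by Cacng5 (2.36), Shisa9 (1.54) and Cacng4 (1.37) among the higher and by Frrs1l (-0.94) among the lower genes.

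Of 6 kainate receptor partners, 2 were higher and none lower in home-cage NAc, beside 7.01% and 5.35% of all genes tested. Neto2, a kainate receptor auxiliary subunit that slows channel kinetics, had 168 and 115 CPM against 75.5 and 65.9 CPM (log2 fold change 1.0, edgeR adjusted p = 0.0368). Kctd12, which is better known as an auxiliary subunit of GABA-B receptors, had 90.8 and 87.2 CPM against 52.5 and 54.1 CPM (0.74, edgeR adjusted p = 0.0121). In exposed mice Neto2 (0.79) and Kctd12 (0.52) were higher and C1ql3 (-0.70) lower in NAc, where 19.2% of all genes tested were higher and 17.1% lower. Of 15 scaffold and trafficking genes, only Grip1 passed in home-cage mice among those tested, at 649 and 642 CPM in NAc against 355 and 375 CPM in mPFC (0.82, edgeR adjusted p = 0.0155). Its product binds the tails of the Gria2 and Gria3 proteins. In exposed mice Grip1 was higher (1.05), and 4 of the 15 were lower, among them Nptx1 (-1.40), Nptx2 (-0.97) and Dlg4 (-0.44), the pentraxins that cluster AMPA receptors and the scaffold PSD-95. These counts stand beside the same 19.2% higher and 17.1% lower over all genes tested. Of the 3 genes of the RNA editing family, Adarb2, a member with no known editing activity, passed with 1.42 in home-cage and 1.45 in exposed mice (edgeR adjusted p = 0.0128 and 0.0027).

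Between the NAc numbers, the partner lists are read beside the 9.67% of all genes tested that were higher in number 1 and the 9.16% that were lower. Of the 18 AMPA auxiliary genes 4 were higher and 4 lower in number 1, with Shisa6 at -1.0, Cacng4 at 0.95, Gsg1l at 0.90 and Cnih3 at -0.83 on the log2 scale. Of the 6 kainate partners 3 were higher and 1 lower, with C1ql3 at -0.84, Neto1 at 0.61, Neto2 at 0.40 and Kctd16 at 0.31. Of the 15 scaffold genes 4 were higher and 3 lower, among them Syndig1 at 1.36, Nptxr at -1.09, Nptx1 at -0.96 and Akap5 at 0.88, and Adarb2 was at -0.42. After cocaine and after defeat, no gene of these 4 lists passed in edgeR, with list medians of -0.12 to 0.00 after cocaine and -0.03 to 0.01 after defeat.

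Gria1, Gria4 and Grik1 had the largest absolute log2 fold changes in the home-cage regional fit over both NAc numbers, where Grik1 did not pass, and Grik3 exceeded Grik1 in exposed mice and with home-cage NAc replicate 2. For these 3 members, the genes with the most similar pattern were sought among 13075 genes with a mean of at least 1 CPM, by the root mean square difference of centred log2 CPM over the 8 libraries. Among the nearest to Gria1 were Tiam2 (0.0568) and Agap1 (0.0664). Tiam2, a gene of a Rac guanine nucleotide exchange factor, averaged 215 CPM in home-cage NAc and 104 CPM in home-cage mPFC. Nearest to Gria4 were Pros1 (0.0468), Nlrc4 (0.0478) and Fut9 (0.0582). In the same groups Fut9, a fucosyltransferase gene, averaged 169 and 330 CPM, Pros1 6.12 and 11.2 CPM, and Nlrc4 0.99 and 1.82 CPM. Nlrc4 thus lay near the limit of 1 CPM. Nearest to Grik1 were Eya4 (0.0757), Ddr2 (0.0805) and Gng2 (0.0813), and Gng2, a G-protein gamma subunit gene, averaged 101 and 163 CPM in the same groups. These distances are descriptions over 8 libraries that share 2 regions.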

How the data were processed

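Total RNA libraries from NAc and mPFC tissue (8 libraries, 4 groups of 2) were read as 2 deposited tables, 1 per region, of raw counts per gene symbol. Per the submitters' processing notes, the authors used STAR 2.7.1a, featureCounts and the mm10 build, and how introns, strand and multi-mapping reads were handled, and with which annotation, is not given in the sources used here, nor is the featureCounts version. All deposited counts were whole numbers, the total per library was 111901829 to 179479978 counts, and 9185 of 33885 symbols were at 0 in all libraries. The 8 annotated small or sense-intronic genes inside members that matched a symbol of the tables were listed at 0 counts in every library, and how reads shared by overlapping genes were treated is not stated.

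Each comparison was fitted over all genes with edgeR 4.0.16 under R 4.3.3 (filterByExpr, TMM, estimateDisp, glmQLFit and glmQLFTest with defaults), with Benjamini-Hochberg adjustment over all genes tested and a threshold of 0.05. Standard errors were derived from the log2 fold change and its quasi-likelihood F statistic, and intervals are 95% intervals. CPM used TMM factors over the 8 libraries, and log2 CPM for marker scores and similar genes used a prior count of 2. Ratios within a library were tested by an exact two-sided permutation test (scipy 1.17.1), since 2 against 2 libraries cannot give a p below 0.333. Gene models came from GENCODE release M21, promoters from RefSeq. No replicate pair agreed within sampling noise (chi-square per degree of freedom 21.5 to 282), so none was merged, which does not show that replicates are separate animals or RNA samples. Intervals cover the spread between libraries, which edgeR estimates for each gene partly from all genes together. Counts of PCR reads without molecular identifiers are not counts of molecules. The fits of defeat in mPFC, of the home-cage regions and of the NAc numbers were also run on simulated data, the other comparisons not. The simulation gave every gene the same relative spread beyond counting noise. It therefore does not show how the fits behave on these libraries.

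Alternatives were DESeq2 1.42.0, RLE factors, no low-count filter, leaving out each library, the replicate number as a block, all libraries in 1 fit, and the striatal minus cortical marker score as a covariate in the cocaine comparison. Members, gene lists and comparisons were chosen with earlier results of these data known. All 9 members are named. From each list of partner genes or markers, up to 4 genes that passed with the largest absolute log2 fold change could be named in a comparison, and for the 3 members with the largest regional change, the 3 most similar genes, without provisional models, of which 1 is not reported here. Activity marker and cell type marker lists were counted in the same way. Fos was named after its values were seen.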

Additional observations from a re-analysis of the deposited data

How the results depend on the processing

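The directions of Gria1, Gria4 and Grik3 between the regions held under every alternative run. No member passed after cocaine under any alternative, and after defeat only Grik4 did, without mPFC home-cage replicate 1. Between the NAc numbers, Grik1 and Grik2 passed under DESeq2, RLE factors and no filter. The lowest count of a member in a library was 7563.

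Counts of genes passing moved by over 1.5 times as follows, and the cause was not tested. DESeq2 called 4 genes after cocaine, 3618 between home-cage regions, 2218 between NAc numbers and 2 for the difference between the responses. The fit of all 8 libraries called 5 genes after defeat and 4654 between home-cage regions. The marker score as a covariate gave 373 genes after cocaine (307 higher, 66 lower). Leaving out each library gave 58 to 238 genes and 0 to 1 members after defeat, 0 to 8048 genes and 0 to 5 members between home-cage regions, 1133 to 9334 genes and 1 to 7 members between exposed regions, and 0 to 1 genes for the difference between the responses. With NAc number 2 only, 5 of the 7 ratios did not overlap, against 3, and 4 of 9 ranks were the same by gene span. Leaving out a library could not be run between the NAc numbers, since no residual degrees of freedom were left.

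With the replicate number as a block, 38 genes passed after cocaine (33 higher, 5 lower) and none was a member, and 2174 genes and 2 members passed between home-cage regions (Grik3 lost, adjusted p = 0.0560); no other member call changed. The labels do not say what the number marks. Deviations of same-numbered libraries from their group means correlated at 0.61 between cocaine and home-cage NAc and at 0.07 between home-cage NAc and mPFC, over 18418 genes, which are not independent.

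Small log2 fold changes that did not pass changed sign. After cocaine Gria1 was at -1.9e-06 with DESeq2, -0.0033 without the filter, -0.000051 in the fit of all 8 libraries and -0.0079 with the marker score, and Grik2 was at 0.026 with the replicate block and 0.10 with the marker score. After defeat Gria2 was at 0.0042 with DESeq2, 0.0026 with RLE factors and 0.0021 without the filter, and Gria4 at 0.0016 with DESeq2 and 0.000079 with RLE factors. Leaving out each library gave log2 fold changes of -0.046 to 0.048 for Gria1, -0.099 to 0.080 for Gria3, -0.055 to 0.093 for Gria4, -0.073 to 0.61 for Grik1, -0.35 to 0.43 for Grik2 and -0.12 to 0.22 for Grik4 after cocaine. The ranges were -0.15 to 0.0060 for Gria1, -0.038 to 0.038 for Gria2, -0.12 to 0.00070 for Gria3, -0.074 to 0.066 for Gria4, -0.023 to 0.13 for Grik1 and -0.049 to 0.13 for Grik2 after defeat. They were -0.19 to 0.13 for Grik4 and -0.023 to 0.14 for Grik5 between home-cage regions. They were -0.011 to 0.16 for Gria1, -0.045 to 0.15 for Gria3, -0.051 to 0.089 for Gria4, -0.14 to 0.55 for Grik1, -0.39 to 0.38 for Grik2 and -0.051 to 0.11 for Grik5 for the difference between the responses.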
